A study of Oryzias latipes with 10 samples.

Results

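The genes fam46a and myof were followed through 10 liver libraries of the medaka, Oryzias latipes, and set beside the RNA of 3 egg protein genes, vit-6, ol-vit1 and 1-sf. They are 2 of 25795 genes in the deposited table and were picked by gene ID because both lay far lower in knockout than in wild-type liver and appeared to move with the egg proteins. Their difference between genotypes and their relation to the egg proteins are therefore given as descriptions, without a test. The KO group holds 5 libraries from fish whose phod1 gene, written pd1 in the labels, was knocked out, and the WT group holds 5 libraries from wild-type fish. All fish lived under long-day conditions and gave liver at 12:00, and the labels name no strain, sex, age, allele or batch. Nothing states that the libraries came from separate animals, and any p-value therefore speaks of the spread among these 10 libraries alone, which may be technical.

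Fam46a, also called TENT5A, belongs to a family of poly(A) polymerases outside the nucleus that lengthen the tails of chosen messenger RNAs and so keep them longer. In mouse bone-forming cells it acts on collagen messenger RNA, and its relative FAM46C acts on antibody messenger RNA in mouse plasma cells, so the known targets code for secreted proteins. Myoferlin, the product of myof, is a ferlin, a membrane protein with several calcium-binding C2 domains that takes part in membrane fusion, repair and endocytosis, and it is best known from mammalian myoblasts and endothelium. The egg proteins are made in the liver of egg-laying fish under estrogen and carried to the ovary in blood. The genes vit-6 and ol-vit1 code for vitellogenins, the yolk precursors, 1-sf codes for a choriogenin of the egg envelope, and esr1 codes for an estrogen receptor.

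Values are in RPM, reads per 1000000 reads counted for genes, from a 3' sequencing method in which a transcript's length does not scale its count. The libraries held 4542721 to 10112313 reads in KO and 5422342 to 9803543 reads in WT. WT3 and KO2 were the 2 libraries that did not lie nearer to their own genotype. Over the 14984 genes that reached 1 RPM in 5 or more libraries, the median absolute distance on the log2(RPM + 1) scale was 0.51 between KO2 and the mean of the other KO libraries and 0.45 between KO2 and the WT mean. For WT3 it was 0.44 to the mean of the other WT libraries and 0.44 to the KO mean. In each of the other 8 libraries the own genotype was the nearer, though KO1, at 0.46, lay further from its own group than WT3 did. No gene of the name table is called phod1 or pd1, so the targeted gene was not analysed here. In liver tissue, fewer cells of a type and less RNA per cell cannot be told apart.

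Knockout liver held little fam46a RNA, except in KO2. The RPM of fam46a was 0, 22.0, 0.861, 1.31 and 2.47 in KO1 to KO5. In WT1 to WT5 it was 108, 136, 1.66, 144 and 156. WT1, WT2, WT4 and WT5 lay above all KO libraries, while WT3 fell among the low KO libraries and below KO2 and KO5, so the groups overlapped. The means were 5.33 ± 9.37 RPM in KO and 109 ± 62.7 RPM in WT (SD, n = 5 each), a log2(RPM + 1) difference of -4.27 ± 0.92 (SE of the limma fit). The median of all 14984 tested genes was -0.19. In reads, KO1 had 0 of fam46a, which allows up to 0.4996 RPM at 3 reads, or 0.614 RPM by the exact Poisson 95% interval. KO2 had 100 reads, with an exact Poisson 95% interval of 17.9 to 26.8 RPM. WT3 had 9 reads, with an interval of 0.759 to 3.15 RPM, and WT1 had 624, with 99.6 to 117 RPM. These limits cover counting error only, and the interval of WT3 lay below those of KO2 and of WT1. Without WT3 and KO2 the means were 1.16 ± 1.03 RPM in KO and 136 ± 20.5 RPM in WT (SD, n = 4 each), and the difference was -6.11 ± 0.33. With WT3 alone left out it was -5.40 ± 0.58, and with KO2 alone left out -4.98 ± 0.89.

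The myof RNA was also lower in KO, by less and with a smaller spread. Its RPM was 3.33, 19.8, 3.81, 1.67 and 8.11 in KO1 to KO5. In WT1 to WT5 it was 62.4, 41.0, 11.6, 65.4 and 42.7. KO2 was again the highest KO library and WT3 the lowest WT library, and KO2 lay above WT3, which was the only overlap. The means were 7.35 ± 7.36 RPM in KO and 44.6 ± 21.5 RPM in WT (SD, n = 5 each), a log2(RPM + 1) difference of -2.63 ± 0.49. KO2 had 90 reads of myof (exact Poisson 95% interval 15.9 to 24.4 RPM) and WT3 had 63 (8.93 to 14.9 RPM), so their order went beyond counting error. Without WT3 and KO2 the means were 4.23 ± 2.74 RPM in KO and 52.9 ± 12.8 RPM in WT (SD, n = 4 each), with a difference of -3.47 ± 0.33. By the ratio of means over all 10 libraries, fam46a was 20.5-fold and myof 6.07-fold lower in KO. For vit-6, ol-vit1 and 1-sf the same ratios were 8.67, 4.60 and 6.69. Without WT3 and KO2 they were 117 for fam46a and 12.5 for myof, and 49.5, 18.9 and 25.6 for vit-6, ol-vit1 and 1-sf. The ratio of myof thus lay within those of the egg protein genes over all libraries and below them without WT3 and KO2.

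**Figure D1:**
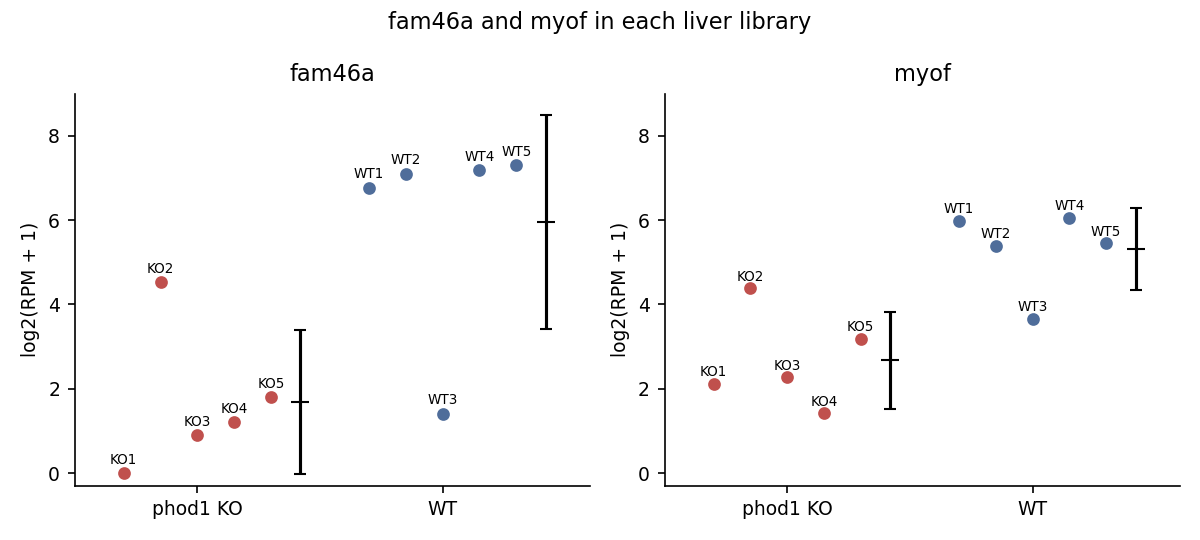
Levels of fam46a and myof, in log2(RPM + 1), in each of 5 phod1 KO and 5 WT liver libraries, with the mean and SD of each group beside its points. KO2 is the highest KO point and WT3 the lowest WT point of both genes, and fam46a in WT3 (1.41) lies among the KO libraries.

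The summed RNA of vit-6, ol-vit1 and 1-sf gave each library a place on a scale from low to high egg protein RNA. Below, egg protein level means this sum, a share of counted reads, and not protein made. The sum was 5931, 69479, 5707, 4285 and 4795 RPM in KO1 to KO5. In WT1 to WT5 it was 104405, 133236, 27700, 123953 and 139784 RPM. The libraries thus fell into 4 low KO libraries, 4 high WT libraries, and WT3 and KO2 between them, with WT3 the lower. On this scale myof stood in step: its 4 lowest values were those of the low KO libraries, followed by WT3, KO2 and the 4 high WT libraries. The order of fam46a was the same for KO2 and the high WT libraries, but WT3 lay within the low KO libraries, although its egg protein sum was well above theirs. Because the libraries fall into separate groups, no correlation over all of them is given for the sum, and 5 libraries in a genotype are too few for a correlation within it.

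**Figure D2:**
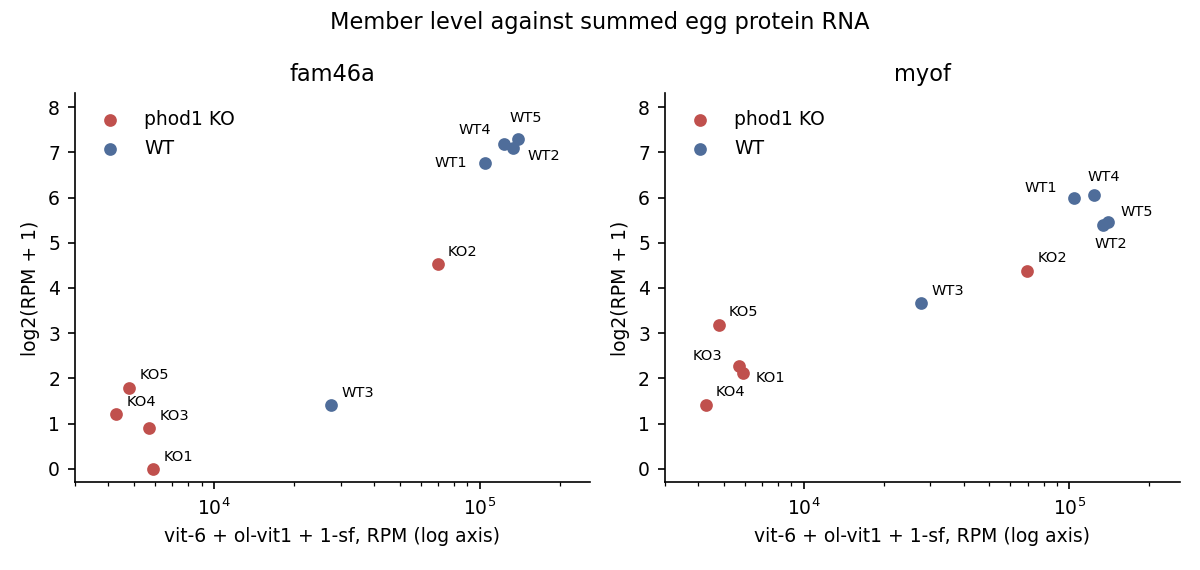
Level of fam46a and of myof, in log2(RPM + 1), against the summed RPM of vit-6, ol-vit1 and 1-sf on a log axis, with 1 point for each KO and WT library. WT3, at 27700 RPM of egg protein RNA, lies low for fam46a (1.41) and between the KO and high WT libraries for myof (3.66).

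Among the libraries of similar egg protein level, fam46a came close to the egg protein order in the high WT libraries but not in the low KO libraries. The gene myof followed it in neither genotype. Of the 4 low KO libraries, KO1 had the highest egg protein sum and no fam46a read, and KO5 had the highest fam46a and myof with the next to lowest sum. Of the 4 high WT libraries, WT1 had the lowest sum and the lowest fam46a, and WT5 the highest of both, while WT2 and WT4 stood in the opposite order, with overlapping Poisson intervals of fam46a. For myof, WT4 and WT1 were high and WT5 and WT2 low, while WT5 and WT2 had the highest sums. These differences span 4285 to 5931 RPM in the low KO libraries and 104405 to 139784 RPM in the high WT libraries.

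Relative to the egg proteins, fam46a RNA was nearly constant in the high WT libraries and low elsewhere. Per 100000 RPM of egg protein RNA, fam46a stood at 0, 31.7, 15.1, 30.7 and 51.6 RPM in KO1 to KO5. In WT1, WT2, WT4 and WT5 it stood at 103, 102, 116 and 112 RPM, and in WT3 at 5.99. The value of WT3 was thus below those of KO2 to KO5 and of every other WT library. The same measure for myof was 56.2, 28.5, 66.8, 39.0 and 169 RPM in KO1 to KO5. In WT1 to WT5 it was 59.8, 30.7, 41.9, 52.8 and 30.6 RPM. Apart from KO5, all myof values lay between 28.5 and 66.8 RPM, WT3 and KO2 included, and the WT values, 30.6 to 59.8, lay inside the range of the KO values. The ratio of fam46a averaged 25.8 ± 19.4 in KO and 87.9 ± 46.2 in WT, and that of myof 71.9 ± 56.3 in KO and 43.2 ± 13.1 in WT (SD, n = 5 each).

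**Figure D3:**
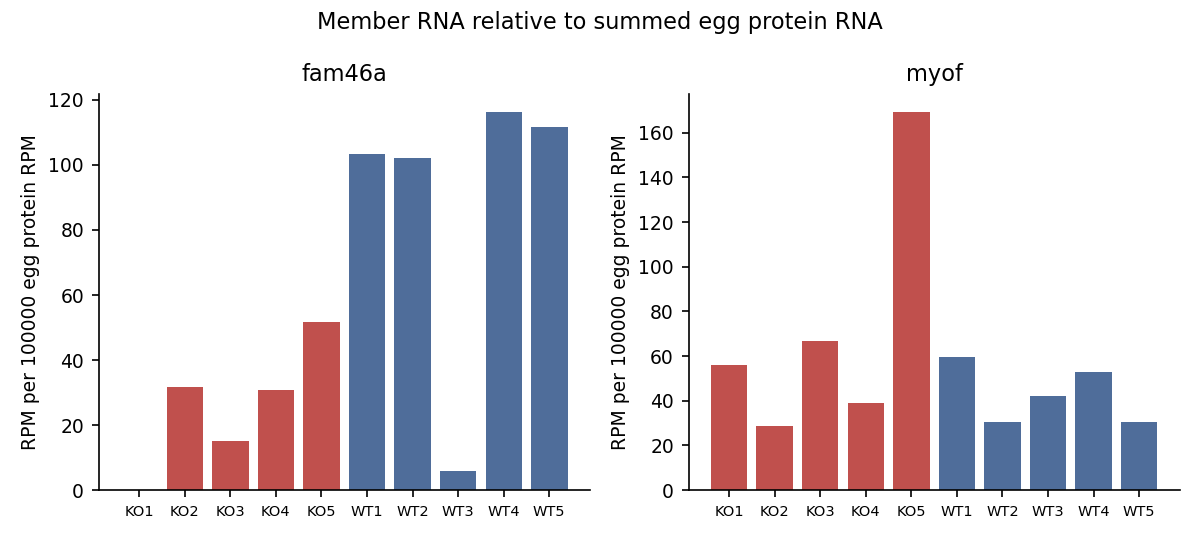
RPM of fam46a and of myof per 100000 RPM of summed egg protein RNA, as 1 bar for each KO and WT library. For fam46a, WT1, WT2, WT4 and WT5 stand at 102 to 116 and WT3 at 5.99, while for myof KO5 alone stands above 66.8.

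The low level of fam46a in WT3 was out of proportion to that of the egg proteins. In WT3, fam46a was 82.0-fold lower than the mean of the other 4 WT libraries. The gene myof was 4.55-fold lower, vit-6 5.70-fold, ol-vit1 4.06-fold, 1-sf 4.63-fold and esr1 1.59-fold. On the log2(RPM + 1) scale the fam46a difference between WT3 and the mean of the other WT libraries was -5.67, the lowest of all 14984 tested genes. With a pseudocount of 0.5 RPM it was also the lowest, and with 5 RPM it was in place 2 from the lowest. For myof the difference was -2.06, and 115 genes including it had a value as low. The members were chosen with WT3 and KO2 in view, so their places among all genes, here and for KO2, are descriptions only.

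In KO2 the order differed, and fam46a was high to about the same degree as the egg proteins. There fam46a was 18.9-fold above the mean of the other 4 KO libraries, vit-6 19.8-fold, ol-vit1 13.4-fold and 1-sf 12.2-fold, while myof was 4.68-fold and esr1 4.87-fold higher. The fam46a ratio rests on 0 to 25 reads in each of the other 4 KO libraries, with a mean of 1.16 RPM. Taken from log2(RPM + 1) it was 11.7-fold, against 12.3-fold to 19.9-fold for the egg protein genes. On the log2(RPM + 1) scale the difference was 3.55 for fam46a, and 8 genes including it were as high. It was 2.13 for myof, with 69 genes as high. Set directly against WT3, KO2 had 13.3 times the fam46a RPM and 1.71 times the myof RPM, and 2.20 to 2.89 times the RPM of the egg protein genes.

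**Figure D4:**
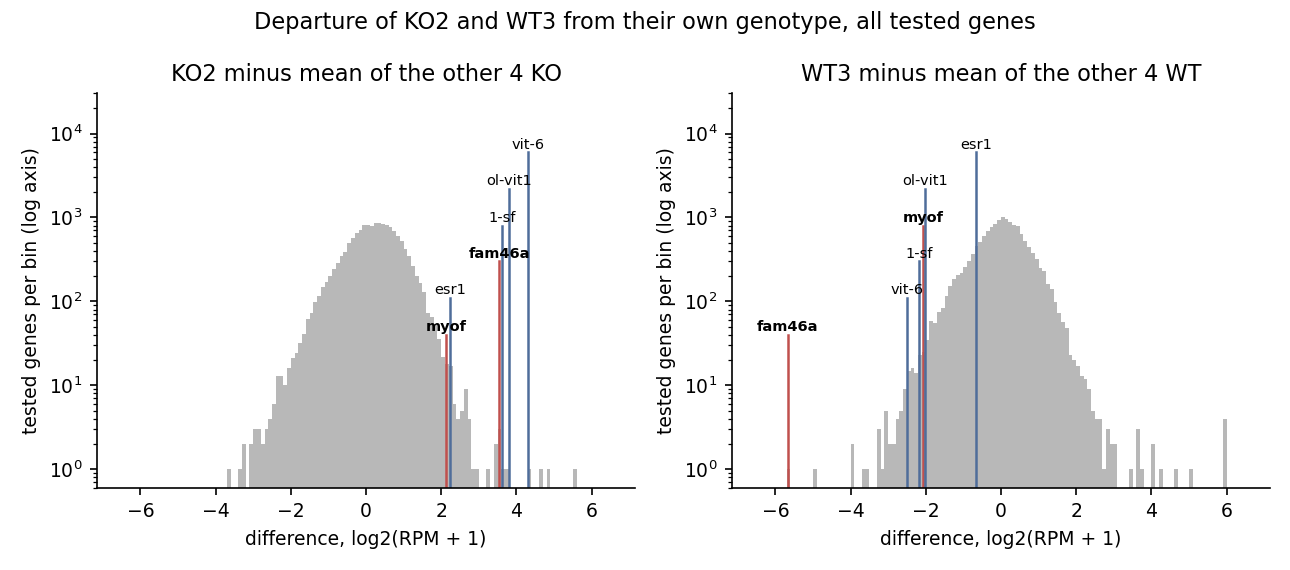
Distribution over 14984 tested genes of the difference, in log2(RPM + 1), between KO2 and the mean of the other 4 KO libraries and between WT3 and the mean of the other 4 WT libraries, with genes per bin on a log axis. Vertical lines, whose height carries no value, mark fam46a and myof in red and the egg protein genes and esr1 in blue. The WT3 line of fam46a (-5.67) lies at the far low end, away from myof (-2.06) and the egg protein genes.

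Within a genotype, the slope of log2(RPM + 1) on the log2 of the egg protein sum was 1.32 ± 0.22 for fam46a and 0.65 ± 0.13 for myof (SE of a limma fit with genotype as a term, 10 libraries). The median slope of all tested genes was 0.04, 2 genes including fam46a had a slope as high as that of fam46a, and 25 including myof as high as that of myof. Since both members were chosen for moving with the egg proteins, these high places follow from that choice. These slopes rested on WT3 and KO2. Without KO2 they were 2.40 ± 0.31 for fam46a and 0.88 ± 0.25 for myof, and without WT3 0.90 ± 0.15 and 0.55 ± 0.14. Without both, fam46a had -0.97 ± 0.93 and myof -0.20 ± 0.97. In the 10-library fit the difference between KO and WT at equal egg protein level was 0.26 ± 0.91 for fam46a and -0.42 ± 0.54 for myof. That fit gives both genotypes the same slope, whereas for fam46a the slope differed between the fits without KO2 and without WT3. Genotype and egg protein level overlapped only through WT3 and KO2, so outside these 2 libraries their parts cannot be told apart.

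Among the relatives of fam46a, fam46b was lower in KO as well and fam46c did not pass. In the limma test across all genes, the threshold was a Benjamini-Hochberg adjusted p under 0.05. In KO, 1.68% of the 14984 genes were lower and 1.17% higher (252 and 175 genes, or 131 and 303 after TMM scaling). An unadjusted p under 0.05 was found for 2453 of the 14984 genes. The gene fam46b had 0.999, 3.96, 2.58, 7.17 and 3.07 RPM in KO1 to KO5, and 13.8, 14.9, 4.98, 7.86 and 22.7 RPM in WT1 to WT5. WT3 was the lowest WT library here too, and KO4, not KO2, was the highest KO library and lay above WT3. The means were 3.56 ± 2.29 RPM in KO and 12.9 ± 6.89 RPM in WT (SD, n = 5 each), a fall of fam46b in KO with a log2(RPM + 1) difference of -1.59 ± 0.41 and a limma adjusted p of 0.0389. The call of fam46b was lost in 13 of 23 alternatives, among them TMM scaling (0.0718), the edgeR count test (0.188) and 7 of the 10 fits without 1 library, with adjusted p-values of 0.00678 to 0.808 over all of them. Its slope on the egg protein level within genotype was 0.19 ± 0.16. The gene fam46c, at 10.9 ± 4.18 RPM in KO and 14.3 ± 6.29 RPM in WT, had a difference of -0.34 ± 0.33 (limma adjusted p = 0.662). Its values spanned 6.16 to 15.3 RPM in KO and 6.22 to 23.5 RPM in WT, and WT3 stood in the middle at 13.8 RPM.

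The FNDC3 proteins hold TENT5 enzymes at the membrane of the endoplasmic reticulum (ER) in mammals, and neither gene passed in limma. The gene fndc3b had 23.0, 60.8, 36.3, 29.9 and 25.3 RPM in KO1 to KO5, and 54.4, 103, 26.4, 108 and 82.9 RPM in WT1 to WT5. KO2 was the highest KO library and WT3 the lowest WT library, as for fam46a, with KO2 above both WT3 and WT1. The means of fndc3b were 35.0 ± 15.2 RPM in KO and 74.9 ± 34.3 RPM in WT (SD, n = 5 each; limma adjusted p = 0.128). It passed as lower in KO without WT3 (log2 difference -1.33) and without both WT3 and KO2 (-1.55). Its partner fndc3a averaged 38.9 ± 4.04 RPM in KO and 44.1 ± 4.57 RPM in WT, a difference of -0.18 ± 0.18 (limma adjusted p = 0.678).

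Other genes that set the length of poly(A) tails did not pass. Of 7 further nucleotidyl transferase genes none was called in limma, edgeR or DESeq2 and 1 had an unadjusted p under 0.05 in limma, with a median difference of -0.41 against -0.19 for all genes. DESeq2 gave no adjusted p for 5 of the 7. The most abundant were papd5, whose product adds mixed tails to messenger RNA in mammals, at 17.8 ± 8.07 RPM in KO and 18.4 ± 6.42 RPM in WT, and papolg, a nuclear poly(A) polymerase gene, at 5.62 ± 1.88 RPM in KO and 9.50 ± 3.15 RPM in WT. Together with fam46b, fam46c and both FNDC3 genes, 1 of 11 relatives and partners of fam46a was called lower in limma and 0 higher, 10 did not pass, and 8 lay below the median of all genes, also after TMM scaling. Of 21 genes of tail shortening and poly(A) binding none was called in limma or edgeR. In limma 4 had an unadjusted p under 0.05, against 2453 of all 14984 genes. The median difference of the 21 genes was -0.19, that of all genes. DESeq2, with no adjusted p for 7 of them, called 1, paip2b, lower, and this gene was named after its values were seen. Here pabpc1, the main cytoplasmic poly(A)-binding protein gene, stood at 354 ± 47.5 RPM in KO and 348 ± 49.2 RPM in WT. The gene tob1, whose product recruits deadenylases, stood at 165 ± 27.4 RPM in KO and 184 ± 32.6 RPM in WT.

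Collagen genes were listed because mouse TENT5A is known to act on collagen RNA. Only col1a2 and col5a2 were matched in the deposited table, and both were scarce in this liver. The genes col1a1, col3a1 and col5a1 had no match under their symbols, so their level is not known here. The gene col5a2, too low to be tested, averaged 0.981 RPM in KO and 0.753 RPM in WT. Of 8 genes of collagen and matrix production in the table, 4 were tested, 1 was called lower, 0 higher and 3 did not pass. Of all tested genes, 1.68% were called lower and 1.17% higher. The median difference of the list was -0.15, against -0.19 for all genes (0.03 and -0.01 after TMM scaling). The gene col1a2, of a collagen I chain, averaged 6.39 ± 3.06 RPM in KO and 7.08 ± 2.64 RPM in WT (limma adjusted p = 0.842). The 1 call was p4hb, which codes for a subunit of the enzyme that hydroxylates collagen prolines and is also the protein disulfide isomerase of the ER in every secreting cell. It fell to 337 ± 73.7 RPM in KO, against 758 ± 143 RPM in WT (SD, n = 5 each), a difference of -1.17 ± 0.19 with a limma adjusted p of 0.00248. All KO values, 232 to 433 RPM, lay below all WT values, 537 to 908 RPM, a pattern that 2.6% of tested genes showed. WT3 was the lowest WT library of p4hb but KO2 the lowest KO library, unlike its place for fam46a and myof. The p4hb call was lost in 2 of 23 alternatives, the edgeR count test (adjusted p = 0.0774) and the fit with egg protein level as a term (0.225), within 0.000136 to 0.225 over all of them.

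Of the ferlins, dysf was the only tested relative of myof, and its RNA was at the edge of detection. Dysferlin, its product, seals membrane wounds in mammalian muscle. It had 0.239 to 2.70 RPM in KO (median 1.499) and 0 to 2.45 RPM in WT (median 0.714), with 1.32 RPM in KO2 and 0.369 RPM in WT3. The groups overlapped over most of their range, and the log2(RPM + 1) difference was 0.49 ± 0.43 (limma adjusted p = 0.611), opposite in sign to that of myof.

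**Figure D5:**
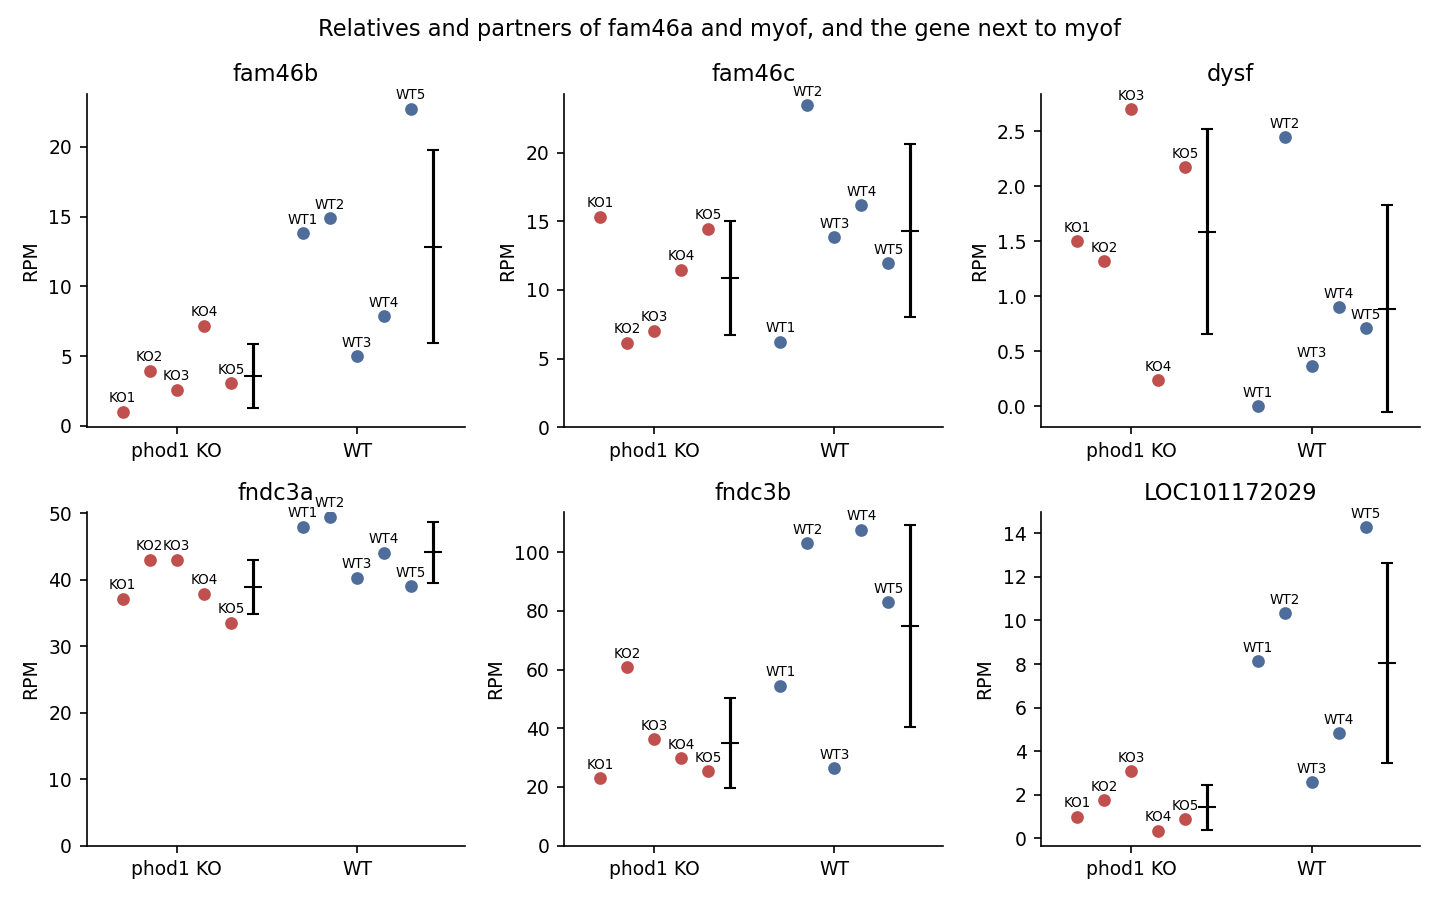
RPM of fam46b, fam46c, dysf, fndc3a, fndc3b and LOC101172029, the gene next to myof, in each KO and WT library, with the mean and SD of each group beside its points. For fndc3b, KO2 (60.8 RPM) and WT3 (26.4 RPM) stand nearer the other genotype, and fam46c and dysf overlap broadly.

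The partners of ferlins in membrane repair and endocytosis did not pass either. Of 20 such genes that the deposited values include, 16 were tested, and none was called in limma or had an unadjusted p under 0.05. Of all 14984 tested genes, 1.68% were called lower and 1.17% higher, and 2453 had an unadjusted p under 0.05. At these shares of called genes, 0 calls among 16 genes do not set the list apart. The median difference was -0.14, against -0.19 for all genes (0.06 and -0.01 after TMM scaling). The edgeR and DESeq2 tests called none of them, and DESeq2 gave no adjusted p for 5. The annexin gene anxa1, whose product binds membranes under calcium, was among the most abundant transcripts of this liver, at 41501 ± 5279 RPM in KO and 48058 ± 2564 RPM in WT (SD, n = 5 each). Another annexin gene, anxa11, stood at 399 ± 62.5 RPM in KO and 451 ± 30.5 RPM in WT. WT3, the lowest WT library of anxa1 at 45591 RPM, was close to the next, and it had 449 RPM of anxa11. KO2 was the highest KO library of both, at 49684 and 477 RPM. Of the caveolar genes, cav3 and cavin1 were listed at 0 in all 10 libraries, while cav1 and cav2 had no match under their symbols. Others were present: a gene named cavin2 averaged 9.13 RPM in KO and 7.32 RPM in WT. Another of that name averaged 3.93 RPM in KO and 3.15 RPM in WT.

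Neighbouring genes on the chromosome were read as a check of whether the region moved as a whole. Of 6 neighbours of fam46a, 3 on each side, 4 were tested and none was called in limma, edgeR or DESeq2, with 1 at an unadjusted p under 0.05 in limma and 1 without an adjusted p in DESeq2. The nearest tested gene on one side, bckdhb, of branched-chain amino acid breakdown, stood at 20.1 ± 5.21 RPM in KO and 27.4 ± 8.00 RPM in WT (limma adjusted p = 0.446). On the other side, ibtk stood at 9.97 ± 2.98 RPM in KO and 17.2 ± 5.56 RPM in WT (limma adjusted p = 0.257), and with 7.75 RPM WT3 was its lowest WT library. Among all 14984 tested genes, 2453 had an unadjusted p under 0.05 in limma and 252 were called lower. Of 6 neighbours of myof 5 were tested, 2 had an unadjusted p under 0.05 in limma and 1 was called lower. The called gene was LOC101172029, a protein-coding gene without a name that lies next to myof. It had 0.999, 1.76, 3.07, 0.358 and 0.890 RPM in KO1 to KO5, and 8.12, 10.3, 2.58, 4.83 and 14.3 RPM in WT1 to WT5. WT3 was again the lowest WT library, and only KO3 lay above it. The difference was -1.83 ± 0.42 with a limma adjusted p of 0.0232, and its call was lost in 8 of 21 alternatives (adjusted p 0.00288 to 0.817), among them the edgeR count test (0.118). The neighbour on the other side, LOC101172535, had 6.38 ± 3.50 RPM in KO and 3.85 ± 2.59 RPM in WT (limma adjusted p = 0.580). Beyond LOC101172029 lay fam20a, at 25.9 ± 22.8 RPM in KO and 47.9 ± 3.91 RPM in WT. Its difference was -1.19 ± 0.35 (limma adjusted p = 0.0822). Of the 9 tested neighbours of both members 6 lay below 0, with a median difference of -0.15 against -0.19 for all genes. Whether reads of a neighbour could be counted for myof was not tested.

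The tested genes most like each member were ranked by Pearson's r of log2(RPM + 1) over the 10 libraries, a description that mixes the difference between genotypes with that within them. For fam46a, the 6 genes with a symbol and the highest r were wdr7 (0.972), rnasek (0.963), rtn1 (0.962), rab6a (0.960), slc10a7 (0.958) and prr13 (0.956), and 134 of 14983 genes had r of at least 0.9. The product of rtn1 is a reticulon that shapes the tubular ER, and that of rab6a is a small GTPase of Golgi transport. The RPM of rtn1 was 95.3, 362, 94.8, 105 and 79.3 in KO1 to KO5, and 433, 494, 150, 558 and 512 in WT1 to WT5. KO2 and WT3 again changed sides, but KO2 was nearer to the high WT libraries and WT3 less far down than for fam46a. Least like fam46a were dcxr (-0.974), h6pd (-0.953) and wap65-like (-0.948). The products of dcxr and h6pd act in sugar metabolism, and wap65 proteins of fish are relatives of the heme-binding hemopexin. For dcxr the RPM in KO1 to KO5 was 38.1, 26.6, 38.1, 37.0 and 36.5, and in WT1 to WT5 17.6, 15.4, 37.4, 20.1 and 15.7, so that WT3 lay among the KO libraries here as well.

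For myof, the 6 genes were cnot8 (0.975), spcs2 (0.974), creld2 (0.963), pdia4 (0.959), spcs1 (0.958) and vit-6 (0.954), and 91 of 14983 genes had r of at least 0.9. Since myof was chosen for its likeness to the egg proteins, the place of vit-6 follows from that choice. The genes spcs1 and spcs2 code for subunits of the signal peptidase that trims secreted proteins as they enter the ER, creld2 and pdia4 code for proteins of ER folding, and cnot8 codes for a deadenylase. The RPM of spcs2 was 18.0, 28.0, 13.5, 15.9 and 20.9 in KO1 to KO5, and 44.1, 39.0, 25.5, 45.3 and 36.9 in WT1 to WT5. In spcs2 as in myof, KO2 was the highest KO library, WT3 the lowest WT library, and KO2 lay above WT3. Least like myof were ms4a6a (-0.963), fam13a (-0.959) and ppp1r3b (-0.955), the last of which codes for a subunit that directs a phosphatase to glycogen. The RPM of ppp1r3b was 144, 83.7, 142, 145 and 96.9 in KO1 to KO5, and 43.9, 66.2, 79.1, 48.9 and 74.8 in WT1 to WT5. KO2 was its lowest KO library and WT3 its highest WT library, without overlap.

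The liver label was read against marker genes, as were other cell types in which the members are known. The hepatocyte markers in the table, fgb and the transferrin gene LOC100144362, summed to 46323 to 74205 RPM in KO and 12607 to 47089 RPM in WT, with KO2 the lowest KO and WT3 the highest WT library. The sum was mostly transferrin. The gene fgb averaged 2674 ± 513 RPM in KO and 1512 ± 751 RPM in WT (limma adjusted p = 0.0579), and DESeq2 but not edgeR called it higher. The transferrin gene was higher in KO, at 54734 ± 10208 RPM, against 21696 ± 12936 RPM in WT (log2 difference 1.48 ± 0.30, limma adjusted p = 0.00884). Its call was lost in 3 of 23 alternatives, without a filter (adjusted p = 0.171), with robust variances (0.0627) and with the egg protein term (0.754), within 1.32e-05 to 0.754 over all of them. That sum moved opposite to fam46a and myof in WT3 and KO2, and its part in the result was not tested. Of 4 tested endothelial markers none was called in limma or had an unadjusted p under 0.05, and the list summed to 33.1 to 55.8 RPM in KO and 27.1 to 51.1 RPM in WT, with 42.7 RPM in KO2 and 51.1 RPM in WT3. Of 8 muscle markers sought only 2, acta1 and myod1, were in the table, and 0 were tested. They summed to 0 to 0.358 RPM in KO and 0 to 2.45 RPM in WT, with 0 in both KO2 and WT3. With myod1 at 0 throughout, this sum was acta1 alone, and the other muscle markers were not read. Stellate and fibroblast markers, with 5 tested and 0 called or under an unadjusted p of 0.05 in limma, summed to 16.8 to 33.9 RPM in KO and 21.0 to 39.3 RPM in WT. Of 8 ovary markers in the table, foxl2 and LOC101174651 were listed at 0 in every library and only cyp19b, the aromatase known from fish brain, was tested. It averaged 33.7 ± 9.92 RPM in KO and 41.4 ± 7.52 RPM in WT (limma adjusted p = 0.519). The bile duct, T and B cell, erythrocyte and testis lists had 2, 1, 1 and 1 tested genes and the macrophage list 2, with 0 called in limma or edgeR and 0 under an unadjusted p of 0.05 in limma. Over all tested genes 1.68% were called lower and 1.17% higher in limma, shares at which lists this short would hold few calls. The macrophage sum, mostly lyz, was 820 to 1837 RPM in KO and 413 to 1756 RPM in WT, lowest among KO libraries in KO2 and highest among WT libraries in WT3. The exocrine pancreas list had no gene in the table under its symbols.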

How the data were processed

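Liver RNA was measured in 10 libraries made with Lasy-Seq, a 3' RNA-seq method, per the labels' protocols. Per the submitters' processing notes, BWA 0.7.17-r1188 and Salmon 1.4.0 were used. The sources used here do not name the genome build. RPM values were deposited by the authors for 25795 genes, summing to 1000000 in each library. All gene IDs were matched to a RefSeq gene table (ASM223467v1), used for names and neighbours only. The values were whole multiples of 1 read in all genes (within 1e-06 of a read). KO5, whose step is close to a round number, was kept out of the count tests, which cover 9 libraries.

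Groups came from the sample labels. Genes with 1 RPM or more in 5 or more libraries were tested (14984, 8058 with a symbol), on log2(RPM + 1), which understates changes of low genes. The fit was limma 3.58.1 (limma-trend, R 4.3.3), KO minus WT, two-sided, Benjamini-Hochberg adjusted over all tested genes, threshold 0.05. It was also run on simulated counts in which no library stood apart, so that run does not speak for data with WT3 and KO2. The quasi-likelihood test of edgeR 4.0.16 and DESeq2 1.42.0 on the recovered reads were alternatives, calling 131 and 310 genes higher and 47 and 179 lower. Others changed the pseudocount, filter, scaling, variances, block, covariate or libraries. All 16 pairs of libraries of 1 genotype without KO5 differed beyond counting noise (chi-square per degree of freedom 15.3 to 156) and were not counted as duplicates, and pairs with KO5 were not compared. Figures used Python 3.11.15 with matplotlib 3.10.9.

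The members, 7 gene lists and 11 marker lists were chosen with earlier results of these data known. Lists were matched by symbol or synonym with paralog suffixes. Named genes are the members, the egg protein genes and esr1; tested TENT5, FNDC3 and ferlin genes; up to 4 called genes of each other list, or else its 2 most abundant; up to 2 called markers; the nearest tested neighbour on each side; and the 6 most and 3 least alike genes with a symbol. Others (col1a2, col5a2, cavin2, acta1, cyp19b, fgb, fam20a, genes listed at 0) were named after their values were seen. Protein and promoter sequences and the planned promoter motifs were not analysed here.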

Additional observations from a re-analysis of the deposited data

Results flagged for a closer look

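In a group of 5 libraries, a value is taken up here when the gap to its nearest neighbour exceeds 0.71 of the group's range (Dixon's test at 95%), which chance gives in about 1 in 20 groups of genes chosen without regard to their values. That rate does not apply here, because the members were chosen with WT3 and KO2 in view and other genes for their likeness to them, so the counts are descriptions. Over 86 groups of named values this gave 20, of which 11 were KO2 and 8 WT3. KO2 stood above the other KO libraries in fam46a (0.888), the egg protein sum (0.975), vit-6 (0.987), 1-sf (0.969), ol-vit1 (0.946), esr1 (0.905), rtn1 (0.910), pdia4 (0.926), slc10a7 (0.806) and prr13 (0.726), and below them in dcxr (0.857). WT3 stood below the other WT libraries in fam46a per 100000 egg protein RPM (0.873), vit-6 (0.793), ol-vit1 (0.789) and cnot8 (0.792), and above them in dcxr (0.787), wap65-like (0.794), LOC100144362 (0.762) and h6pd (0.740). KO5 stood above the other KO libraries in myof per 100000 egg protein RPM (0.728).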

How the results depend on the processing

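The differences of fam46a and myof kept their sign and moved by less than the spread between libraries, except with egg protein level as a term (0.26 for fam46a, reversed, and -0.42 for myof). Leaving out 1 library gave -5.40 to -3.84 for fam46a and -3.06 to -2.32 for myof, and the replicate number as a block left them at -4.27 ± 0.67 and -2.63 ± 0.44. With that term the called genes rtn1 (0.31 ± 0.29) and ol-vit1 (0.26 ± 0.28), itself part of the egg protein sum, also changed sign, by about their SE. Named genes that passed neither with nor without the term changed sign as well, among them fndc3b (0.40 ± 0.41) and wap65-like (-0.26 ± 0.25). With the term limma called 0 genes higher and 0 lower (1146 at an unadjusted p under 0.05), against 175 and 252 without it (2453). Without the term edgeR called 131 higher and 47 lower. Genes called higher and lower were 73 and 103 without a filter, 303 and 131 with TMM scaling, 296 and 143 with median-of-ratios scaling, 147 and 427 rescaled without the egg protein genes, 424 and 621 without WT3 and KO2, 310 and 179 with DESeq2, and 94 to 365 and 104 to 479 without 1 library. The median of all genes was -0.01 with TMM scaling, -0.02 with median-of-ratios scaling and -0.31 rescaled, against -0.19. Slopes on the egg protein level were -0.97 (fam46a) and -0.20 (myof) without WT3 and KO2, 0.92 and 0.48 with a pseudocount of 5, and 0.90 to 2.40 and 0.55 to 0.88 without 1 library. Of the relatives of fam46a, 0 were called lower without a filter, with TMM or median-of-ratios scaling, the replicate block, the egg protein term or edgeR, 2 without WT3 and KO2, and 0 to 2 without 1 library. Of the tail genes 1 was called lower without WT3 and KO2 and with DESeq2, and 0 to 1 without 1 library. Of the collagen genes 0 were called with edgeR or the egg protein term. Of the neighbours 0 were called lower without a filter, with a filter of 5 RPM, the egg protein term, edgeR or DESeq2, 2 when rescaled, 3 without WT3 and KO2, and 0 to 2 without 1 library. LOC101172029 had no adjusted p with the filter of 5 RPM or DESeq2, so these zeros are no lost calls. Of the 6 genes most like fam46a, 1 stayed among them by deviations from genotype means and 1 by Spearman's rho; for myof 1 and 3 did. Where no reason is stated, the cause was not tested. The replicate number pairs no samples: correlations of deviations were -0.08 to 0.00 over 5 numbers, and 0 KO libraries correlated best with their own number. It gave 145 higher and 190 lower calls. At 1 read per 0.0989 to 0.220 RPM, values of fam46a in the low KO libraries rest on few reads.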
